A study of Mus musculus with 9 samples.

Results

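The necroptosis and caspase-8 machinery was followed through 7 genes in mouse dendritic cells (DCs). They were taken by their symbols from the 55471 genes of the deposited counts: *Tradd*, *Fadd*, *Ripk1*, *Ripk3*, *Mlkl*, *Casp8* and *Cflar*. All 7 were found, and all 7 were among the 16260 genes that passed the filter on low counts and were tested. They were chosen by name, with earlier results of these data known.

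These genes encode the proteins that carry a signal from a death receptor, a Toll-like receptor or a nucleic acid sensor to cell death. TRADD and FADD are adaptors with death domains, RIPK1 is a kinase and scaffold, and FADD brings in caspase-8, which starts apoptosis and cleaves RIPK1 and RIPK3. Where caspase-8 is not active, RIPK3 phosphorylates the pseudokinase MLKL, which then breaks the plasma membrane, a form of death called necroptosis. The protein encoded by *Cflar*, c-FLIP, resembles caspase-8, pairs with it and limits both routes. In DCs and macrophages LPS reaches this machinery through the adaptor TRIF, and type I interferons are known to act on several of its genes.

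The DCs were grown from the bone marrow of wild-type C57BL/6 mice with GM-CSF. The methods describe the mice as females of 8 to 20 weeks, without saying whether animals were pooled. RNA was collected at 6 h from cells that were left unstimulated, from cells given LPS, the bacterial cell wall component, at 100 ng/mL, and from cells given the type I interferon IFN-β at 1000 U/mL. Each of the 3 groups had 3 libraries with the letters A, B and C, and all groups shared the genotype, the GM-CSF culture and the removal of ribosomal RNA. The labels do not say whether the letters stand for separate cultures, so that p-values measure the spread between these libraries, which may be technical.

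The libraries held 33425803 to 43735199 counts on genes. Levels are given as CPM, a gene's share of the library size after scaling with TMM factors, which correct for composition. These factors ran from 1.18 to 1.26 in the unstimulated libraries, from 0.783 to 0.841 with LPS and from 0.977 to 1.02 with IFN-β. Counts of the members ran from 402 (exact Poisson 95% interval 364 to 443, for counting error only) to 50413. All 9 DC markers were above 1 CPM on average in each group, with *Flt3* the lowest at 1.88 to 4.99 CPM. The 5 macrophage markers were also expressed, with summed levels of 1662 to 2104 CPM in unstimulated DCs, 1864 to 2416 with LPS and 2365 to 2692 with IFN-β, against 7565 to 8652, 9390 to 10025 and 8416 to 9029 CPM for the DC markers. The macrophage sum hides opposite moves with LPS. *Csf1r* was at 1026 to 1198 CPM in unstimulated DCs and at 546 to 589 CPM with LPS. *Adgre1*, *Mertk* and *Fcgr1* were higher with LPS, *Fcgr1* at 382 to 560 CPM against 70.5 to 132 CPM, and *Cd68* overlapped. None of the 6 neutrophil markers was above 1 CPM on average in any group. In bulk RNA fewer cells of a type and less RNA per cell cannot be told apart, and the part that a shift in cell types has in the results below was not tested. The summed level of 6 interferon-response genes was 191 to 555 CPM in unstimulated DCs, 18856 to 23726 with LPS and 6913 to 8470 with IFN-β, and that of 6 LPS-response genes was 70.9 to 114, 20450 to 21087 and 188 to 269 CPM.

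The members lie on 5 chromosomes of GRCm38. *Cflar* (chr1:58711508-58758884) and *Casp8* (chr1:58795374-58847503) are neighbours on the plus strand of chromosome 1, separated by 36489 bp that hold the gene model *Gm3841*. *Mlkl* (chr8:111311797-111338177) and *Tradd* (chr8:105258286-105264609) lie on the minus strand of chromosome 8. *Ripk1* (chr13:34002363-34037147) is on the plus strand, and *Ripk3* (chr14:55784995-55788865) and *Fadd* (chr7:144577318-144582463) are on the minus strand. The exons of *Ripk1* share 241 bp with *Serpinb6a* on the opposite strand and 511 bp with the pseudogene *Gm17084*, which had 0 counts in every library. *Fadd* shares 239 bp with the antisense gene *Faddos*, which had at most 6 counts in a library. The strand setting of the counting is not given in the sources used here, so that *Ripk1* and *Serpinb6a* reads from the shared 241 bp (2.89% of the *Ripk1* exons) cannot be assigned with certainty.

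Promoter sequences from RefSeq (GRCm38.p6) were matched to 6 of the 7 members, with 7 start sites, 2 of them for *Ripk1*. Windows of 250 bases before and 50 after each start were searched on both strands for the core of the interferon-stimulated response element (GAAA, any 2 bases, GAAA), the core of the gamma-activated site (TTCNNNGAA) and the NF-κB motif. Of 32851 windows of this kind, 3.44% held the first, 8.30% the second and 8.46% the third. The sequences below run from 200 bases before to 20 bases after the start, with matches in capitals, and are shown for *Mlkl*, *Casp8*, *Cflar* and *Ripk3*, whose levels changed most, and for the second start of *Ripk1*, which held the most matches. *Tradd* had no entry. They are *Mlkl* (chr8:111338186-111338405, minus strand), *Casp8* (chr1:58802302-58802521, plus strand, at an internal start of the gene), *Cflar* (chr1:58711291-58711510, plus strand), *Ripk3* (chr14:55788838-55789057, minus strand) and *Ripk1*, second start (chr13:34002674-34002893, plus strand).
Mlkl: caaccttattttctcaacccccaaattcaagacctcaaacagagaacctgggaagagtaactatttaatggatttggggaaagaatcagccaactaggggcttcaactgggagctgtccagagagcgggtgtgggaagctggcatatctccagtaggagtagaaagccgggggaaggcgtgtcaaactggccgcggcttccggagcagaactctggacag
Casp8: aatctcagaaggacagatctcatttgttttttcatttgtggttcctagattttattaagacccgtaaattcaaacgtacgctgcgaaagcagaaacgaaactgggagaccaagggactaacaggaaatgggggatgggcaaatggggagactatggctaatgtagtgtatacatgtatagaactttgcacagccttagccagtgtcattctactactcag
Cflar: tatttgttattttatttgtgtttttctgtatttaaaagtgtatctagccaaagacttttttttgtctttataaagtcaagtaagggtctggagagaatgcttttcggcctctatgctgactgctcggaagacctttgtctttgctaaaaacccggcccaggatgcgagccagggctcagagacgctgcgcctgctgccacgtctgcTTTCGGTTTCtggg
Ripk3: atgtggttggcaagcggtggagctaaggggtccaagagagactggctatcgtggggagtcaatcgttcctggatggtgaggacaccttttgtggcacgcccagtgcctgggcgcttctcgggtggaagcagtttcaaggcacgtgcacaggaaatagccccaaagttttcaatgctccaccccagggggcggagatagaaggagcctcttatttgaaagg
Ripk1, second start: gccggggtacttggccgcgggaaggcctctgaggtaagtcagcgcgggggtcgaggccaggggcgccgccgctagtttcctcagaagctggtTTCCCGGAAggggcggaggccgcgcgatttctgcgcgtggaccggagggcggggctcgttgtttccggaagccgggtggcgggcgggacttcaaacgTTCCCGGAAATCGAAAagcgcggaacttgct
With the start counted as 1 and no base 0, the *Cflar* window held 1 response element core at 7 to 16, written TTTCGGTTTC because it reads on the other strand. The second *Ripk1* window held a gamma-activated site core at -108 to -100 and another at -11 to -3, and the latter overlapped a response element core at -5 to 5. The windows of *Mlkl*, *Casp8*, *Ripk3* and *Fadd* and the first window of *Ripk1* held none of the 3 motifs. A match describes letters in the window and not a bound site.

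Exposure to LPS changed 5 of the 7 genes and IFN-β 3, shares near the 68.2% and 46.9% of all tested genes that changed. *Mlkl*, *Casp8* and *Cflar* rose in DCs given either stimulus, with *Cflar* 10.0-fold and *Mlkl* 7.76-fold higher with LPS, and 3.15-fold and 5.09-fold higher with IFN-β. *Ripk3* fell to 0.505 of its unstimulated level with LPS and did not pass the test with IFN-β. *Tradd* rose with LPS and did not pass the test with IFN-β, and *Ripk1* and *Fadd* passed it in no comparison. With the letter as a block, *Ripk1* passed it with either stimulus and *Tradd* with IFN-β. At an adjusted p under 0.05, LPS raised 4 members (5 with the letter as a block) and lowered 1, where 68.2% of all tested genes changed, 32.8% upward and 35.4% downward. With IFN-β, 3 members rose (5 with the letter as a block) and 0 fell, where 46.9% of all tested genes changed, 23.6% upward and 23.3% downward. These shares are from the fit without a block. The block raised calls over all 16260 tested genes too, from 11084 to 11950 with LPS and from 7631 to 9151 with IFN-β. The median log2 fold change of the 7 members was 0.36 with LPS and 0.22 with IFN-β, beside -0.04 and -0.02 over all tested genes. Both comparisons use the same 3 unstimulated libraries.

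**Figure D1:**
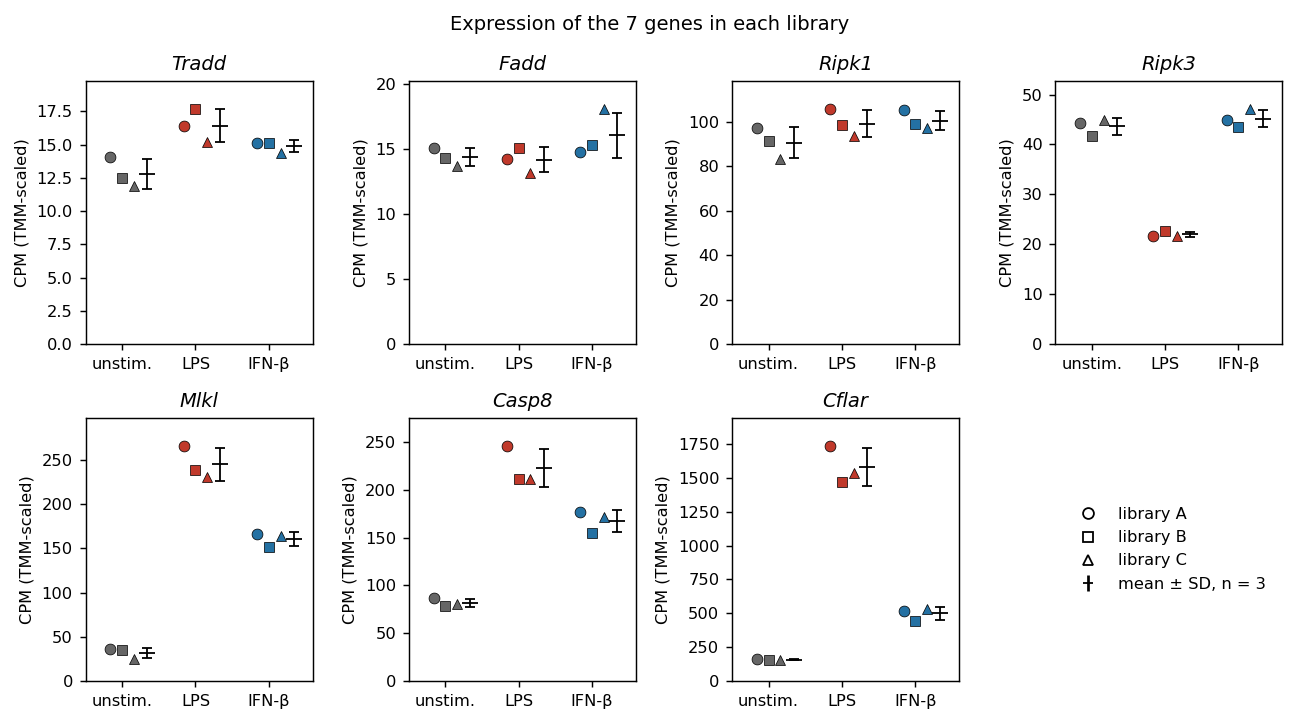
Level of each of the 7 genes in CPM (vertical axes from 0) in libraries A, B and C of unstimulated, LPS and IFN-β DCs, with the mean ± SD of 3 libraries in black. *Mlkl*, *Casp8* and *Cflar* separate all 3 groups, *Ripk3* is low only in the LPS libraries, and *Ripk1* and *Fadd* overlap between unstimulated and LPS libraries.

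The adaptors were the members with the lowest counts. *Tradd*, whose product links TNF receptor 1 to RIPK1, was at 14.1, 12.5 and 11.9 CPM in unstimulated libraries A, B and C, at 16.4, 17.7 and 15.2 CPM with LPS, and at 15.1, 15.1 and 14.4 CPM with IFN-β. Every stimulated library lay above the unstimulated ones. With LPS the log2 fold change was 0.36 (SE 0.09, 95% interval 0.16 to 0.55, adjusted p = 0.00391), a 1.28-fold rise. It was -0.22 when libraries were scaled by their size alone. With IFN-β it was 0.22 (SE 0.09, interval 0.02 to 0.41, adjusted p = 0.0631), and the adjusted p was 0.026 with the letter as a block and 0.0286 without unstimulated library A.

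*Fadd* encodes the adaptor that recruits caspase-8. Its level was 15.1, 14.3 and 13.7 CPM in unstimulated DCs, 14.2, 15.1 and 13.1 CPM with LPS, and 14.8, 15.3 and 18.0 CPM with IFN-β. The groups overlapped, and IFN-β library C was the highest of the 9. The log2 fold change was -0.02 with LPS (95% interval -0.23 to 0.19, adjusted p = 0.853) and 0.16 with IFN-β (interval -0.05 to 0.37, adjusted p = 0.193). These intervals leave out a change as large as that of any of *Mlkl*, *Casp8*, *Cflar* or, with LPS, *Ripk3*.

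The kinases encoded by *Ripk1* and *Ripk3* bind each other through RHIM motifs. *Ripk1* was at 97.3, 91.2 and 83.3 CPM in unstimulated DCs, at 106, 98.6 and 93.5 CPM with LPS and at 105, 98.9 and 97.4 CPM with IFN-β. The LPS libraries overlapped the unstimulated ones, while the lowest IFN-β library was just above the highest unstimulated one. Its log2 fold change was 0.13 with LPS (SE 0.07, 95% interval -0.03 to 0.30, adjusted p = 0.139) and 0.15 with IFN-β (SE 0.07, interval -0.01 to 0.32, adjusted p = 0.123). Within a letter it was positive in all 3 pairs, at 0.11 to 0.17 with LPS and 0.12 to 0.23 with IFN-β, and the fit with the letter as a block gave adjusted p = 0.0317 and 0.0213. *Serpinb6a*, which shares exon sequence with it, had log2 fold changes of 0.18 (adjusted p = 0.048) and 0.07 (adjusted p = 0.465).

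*Ripk3*, the kinase that activates MLKL, was at 44.4, 41.7 and 44.8 CPM in unstimulated DCs, at 21.8, 22.6 and 21.8 CPM with LPS and at 44.9, 43.6 and 47.1 CPM with IFN-β. All LPS libraries were below all others, and the unstimulated and IFN-β libraries overlapped. With LPS the log2 fold change was -0.99 (SE 0.06, 95% interval -1.12 to -0.85, adjusted p = 1.7e-07), which placed it above 17.8% of all tested genes. With IFN-β it was 0.05 (SE 0.06, interval -0.08 to 0.18, adjusted p = 0.527). Its replicates were the closest of the 7 members in the LPS libraries, with a coefficient of variation of 2.15%.

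*Mlkl* encodes the pseudokinase that carries out necroptosis. It was at 35.6, 34.6 and 24.6 CPM in unstimulated DCs, at 266, 238 and 231 CPM with LPS and at 167, 151 and 164 CPM with IFN-β. The 3 groups did not overlap, and unstimulated library C was the lowest of the 9. The log2 fold change was 2.96 with LPS (SE 0.13, 95% interval 2.66 to 3.25, adjusted p = 2.02e-08), above 96.4% of all tested genes. With IFN-β it was 2.35 (SE 0.13, interval 2.06 to 2.64, adjusted p = 9.73e-07), ranked 320 of 16260 from the top. The summed level of the 6 interferon-response genes was also lowest in unstimulated library C, at 191 CPM against 555 in A and 422 in B. Leaving out any 1 library gave *Mlkl* log2 fold changes of 2.80 to 3.04 with LPS and 2.19 to 2.44 with IFN-β.

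*Casp8* encodes the protease that cleaves RIPK1 and RIPK3. It was at 86.8, 78.6 and 80.1 CPM in unstimulated DCs, at 246, 212 and 212 CPM with LPS and at 177, 154 and 172 CPM with IFN-β. The 3 groups were apart, and library A was the highest in each. Its log2 fold change was 1.45 with LPS (SE 0.08, 95% interval 1.26 to 1.63, adjusted p = 1.01e-07) and 1.03 with IFN-β (SE 0.08, interval 0.85 to 1.22, adjusted p = 6.51e-06). These are rises of 2.73-fold and 2.05-fold.

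*Cflar*, the gene of c-FLIP, had the largest estimate of the 7 members with LPS, although its interval overlapped that of *Mlkl*. Unstimulated DCs had 163, 155 and 155 CPM, LPS-activated DCs 1737, 1469 and 1535 CPM, and IFN-β-treated DCs 520.0, 442 and 533 CPM. The lowest LPS library was well above the highest IFN-β library, and that group in turn was above the unstimulated one. With LPS the log2 fold change was 3.32 (SE 0.10, 95% interval 3.09 to 3.55, adjusted p = 3.01e-09), above 97.1% of all tested genes. With IFN-β it was 1.66 (SE 0.10, interval 1.44 to 1.87, adjusted p = 1.17e-06), with an interval below that of *Mlkl* and above that of *Casp8*.

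**Figure D2:**
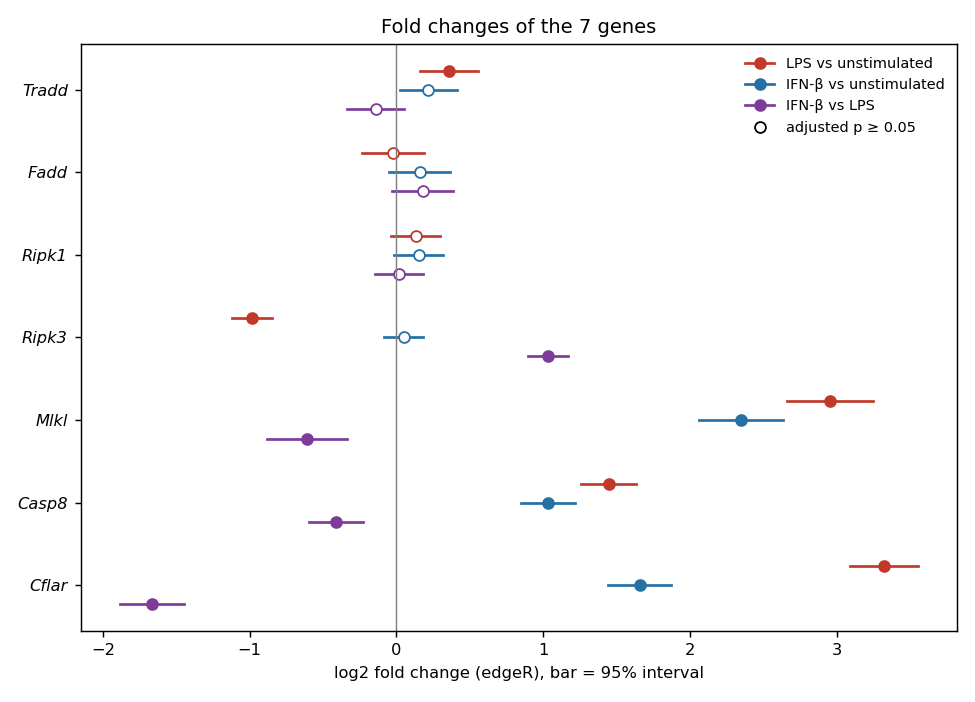
Log2 fold change (horizontal axis) of each gene in the 3 comparisons, with bars for the 95% interval and open points for an adjusted p of 0.05 or more. *Cflar* and *Mlkl* lie farthest to the right with LPS at 3.32 and 2.96, *Ripk3* lies left of 0 with LPS at -0.99, and the intervals of *Fadd* and *Ripk1* include 0 throughout.

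Both stimuli were then compared directly, which asks whether the response to IFN-β differed from that to LPS. Of the 7 members, 1 was higher and 3 were lower with IFN-β, where 49.1% of all tested genes differed, 25.8% upward and 23.3% downward. The median log2 difference of the members was -0.14, beside 0.02 over all tested genes. *Ripk3* was 2.05-fold higher with IFN-β than with LPS (log2 difference 1.04, SE 0.06, adjusted p = 3.82e-07). *Cflar* was 3.17-fold lower (log2 difference -1.66, SE 0.10, adjusted p = 3.35e-07), the widest gap among the members. *Mlkl* was lower by a smaller amount (-0.61, SE 0.12, adjusted p = 0.00201), and so was *Casp8* (-0.41, SE 0.08, adjusted p = 0.00183). For *Casp8* the difference was -0.14 (adjusted p = 0.092) when libraries were scaled by size alone. *Ripk1* differed by 0.02 (95% interval -0.15 to 0.18, adjusted p = 0.852), *Tradd* by -0.14 (interval -0.34 to 0.05, adjusted p = 0.213) and *Fadd* by 0.18 (interval -0.03 to 0.39, adjusted p = 0.142).

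Since the TMM factors differed between the groups, the direction of small changes depended on them. With scaling by library size only, the median of all tested genes moved by -0.58 with LPS, -0.31 with IFN-β and 0.27 between the stimuli, all on the log2 scale. The share of changed genes that were higher went from 48.1% to 21.9%, from 50.3% to 22.3% and from 52.5% to 77.9%. Once these shifts were subtracted, every member kept its TMM value to within 0.0035, as follows from a scaling that moves all genes nearly alike. Without that subtraction, *Ripk1* (-0.45) and *Tradd* (-0.22) turned negative with LPS, as did *Ripk3* (-0.26), *Ripk1* (-0.15), *Fadd* (-0.15) and *Tradd* (-0.09) with IFN-β, and *Tradd* turned positive between the stimuli (0.14). Values near 0 also changed sign elsewhere, with *Fadd* at 0.02 with LPS and *Ripk1* at -0.01 between the stimuli under DESeq2, and *Ripk3* at -0.03 with IFN-β under upper-quartile factors. The changes of *Mlkl*, *Casp8* and *Cflar* with either stimulus, and that of *Ripk3* with LPS, passed the test in the same direction under each of the 7 processing alternatives. With LPS the smallest of these log2 fold changes were 2.38, 0.86, 2.74 and, for *Ripk3*, -0.95.

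**Figure D3:**
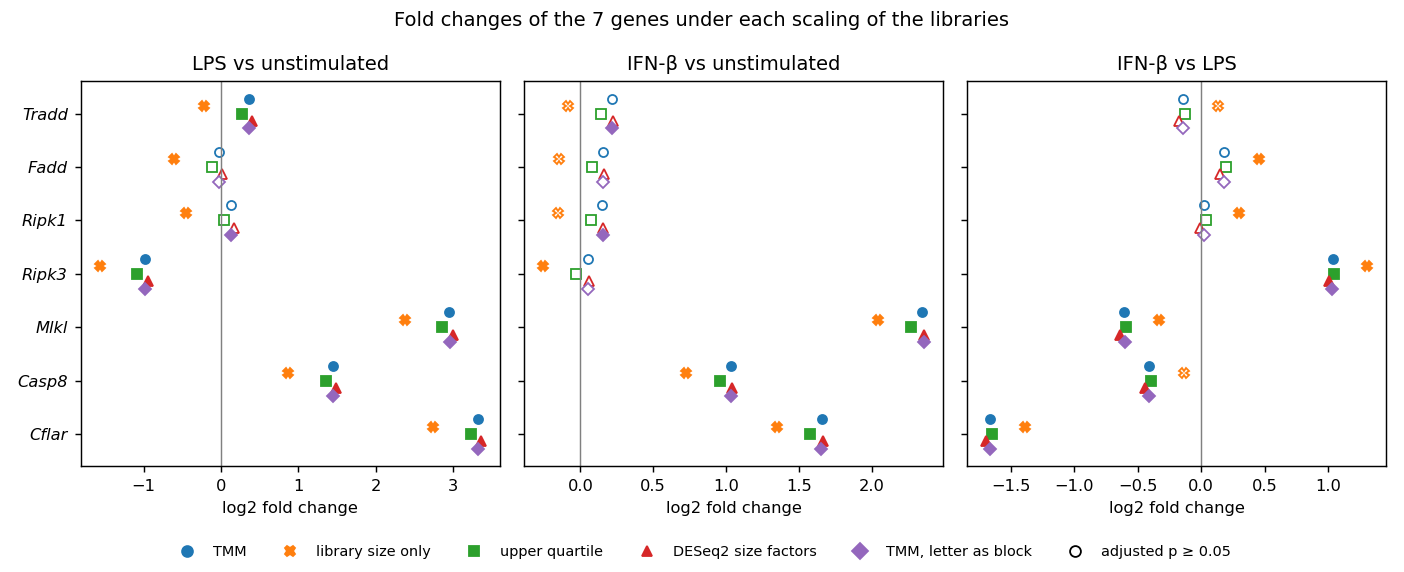
Log2 fold change (horizontal axes) of each gene in the 3 comparisons under 4 scalings of the libraries and with the letter as a block, with open symbols for an adjusted p of 0.05 or more. Scaling by library size alone moves all genes together, by -0.58 with LPS, and takes *Tradd* and *Ripk1* to the left of 0 there, where *Fadd* goes from -0.02 to -0.60.

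Levels can be compared between genes only per length, so CPM were divided by the length of all annotated exons of a gene in kb. On that scale *Casp8* was the highest member in unstimulated DCs at 28.3 ± 1.51 (SD, n = 3), followed by *Ripk3* at 19.0 ± 0.73, *Mlkl* at 13.7 ± 2.64, *Cflar* at 12.5 ± 0.35, *Ripk1* at 10.9 ± 0.84, *Tradd* at 6.86 ± 0.61 and *Fadd* at 3.68 ± 0.18. *Mlkl* and *Cflar* overlapped, and the other neighbours in this order did not. With LPS *Cflar* led at 125 ± 11.0, before *Mlkl* at 106 ± 8.05 and *Casp8* at 77.1 ± 6.89, and the next was *Ripk1* at 11.9 ± 0.74. *Ripk3* followed at 9.61 ± 0.21, *Tradd* at 8.79 ± 0.66 and *Fadd* at 3.62 ± 0.25. With IFN-β the order was *Mlkl* at 69.8 ± 3.58, *Casp8* at 57.9 ± 4.03, *Cflar* at 39.3 ± 3.91, *Ripk3* at 19.7 ± 0.76, *Ripk1* at 12.1 ± 0.51, *Tradd* at 7.98 ± 0.23 and *Fadd* at 4.11 ± 0.45. No neighbours overlapped in either stimulated group. The place of *Cflar* depended on its length, which is 12669 bp over all exons and 6572 bp in the longest transcript. With the longest transcript it was at 24.0 in unstimulated DCs, above *Ripk3* at 22.2, and at 75.8 with IFN-β, above *Casp8* at 64.8.

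The balance between the RNAs of members was read as a ratio of counts per kb within each library, which no scaling of the libraries can alter. The balance between the proteins was not tested. *Cflar* to *Casp8*, the inhibitor to the protease, was 0.429, 0.452 and 0.443 in unstimulated DCs, 1.61, 1.58 and 1.66 with LPS, and 0.672, 0.653 and 0.709 with IFN-β. The groups did not overlap, and the ratio was 3.67-fold higher with LPS and 1.54-fold higher with IFN-β than in unstimulated DCs. Since the lengths are fixed, these folds do not depend on them, while a ratio above or below 1 does.

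*Ripk3* to *Casp8*, the kinase to the protease that cleaves it, was 0.645, 0.670 and 0.706 in unstimulated DCs, 0.112, 0.135 and 0.130 with LPS, and 0.321, 0.356 and 0.346 with IFN-β. It was 5.39-fold lower with LPS and 1.98-fold lower with IFN-β, again without overlap. With IFN-β *Ripk3* itself did not pass the test and *Casp8* rose.

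*Mlkl* to *Ripk3*, the effector to its kinase, was 0.799, 0.824 and 0.546 in unstimulated DCs, 12.2, 10.5 and 10.6 with LPS, and 3.70, 3.46 and 3.47 with IFN-β. It was 15.5-fold higher with LPS and 4.98-fold higher with IFN-β than in unstimulated DCs, and 3.12-fold lower with IFN-β than with LPS. For each of the 3 ratios and 3 comparisons the two-sided exact permutation test gave p = 0.1 (0.1 after adjustment over the 9 tests), the smallest that 3 libraries against 3 allow.

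**Figure D4:**
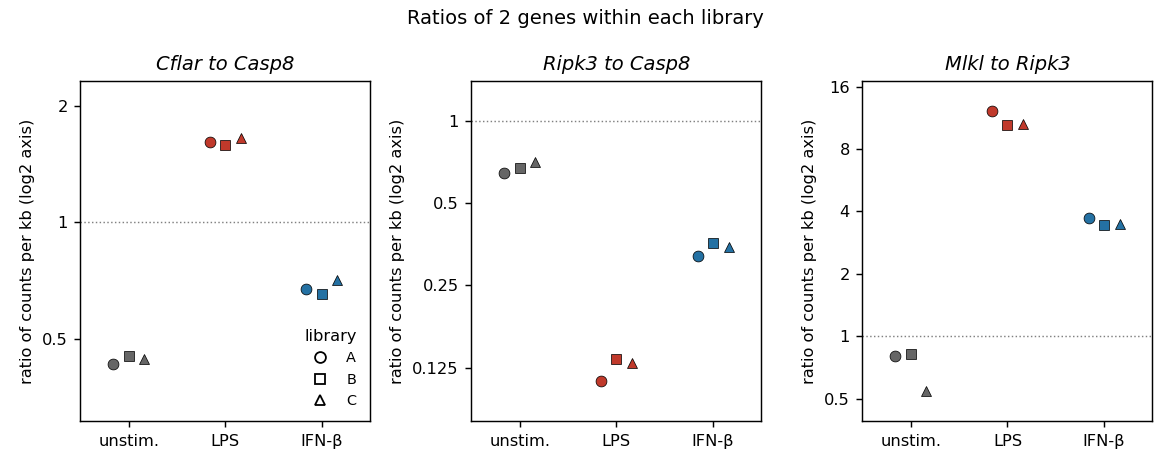
Ratio of the counts per kb of 2 genes within each library (log2 vertical axes, dotted line at 1) in unstimulated, LPS and IFN-β DCs. With the length of all annotated exons used here, *Cflar* to *Casp8* lies above 1 only with LPS. With the longest transcript as length, *Cflar* was also above *Casp8* with IFN-β, at 75.8 against 64.8. *Ripk3* to *Casp8* is lowest with LPS at 0.112 to 0.135, and *Mlkl* to *Ripk3* is highest there at 10.5 to 12.2.

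The surroundings of the 7 genes were described with 7 lists of 52 genes that act directly above, below or on them. *Fasl* was not tested, with 0 counts in 6 libraries and at most 3. With LPS 46 of the 51 tested genes changed (39 higher, 7 lower, median log2 fold change 1.10), and with IFN-β 39 did (36 higher, 3 lower, median 0.45). Between the stimuli 3 were higher and 32 lower with IFN-β, with a median of -0.45. With scaling by library size only the calls were 30 higher and 15 lower with LPS and 25 higher and 13 lower with IFN-β. Between the stimuli they were 11 higher and 22 lower. Over all 16260 tested genes that scaling called 2777 higher and 9906 lower with LPS, and 2146 higher and 7484 lower with IFN-β. Between the stimuli it called 7024 higher and 1996 lower. The 3 falls with IFN-β were 1 when any 1 unstimulated library, or IFN-β library A or B, was left out. With TMM factors the shares called, 90.2%, 76.5% and 68.6%, stand beside 68.2%, 46.9% and 49.1% of all tested genes. The lists were chosen with earlier results of these data known, so these shares do not test whether the lists respond more than other genes.

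All 6 tested death ligands and receptors changed with each stimulus, 5 upward and 1 downward. For this list and those below, the shares of all tested genes were 68.2% with LPS (32.8% upward) and 46.9% with IFN-β (23.6% upward). *Tnfsf10*, which encodes the death ligand TRAIL, had the largest rise, at a log2 fold change of 5.62 (SE 0.30) with LPS and 4.89 (SE 0.29) with IFN-β, from 1.96 to 4.08 CPM in unstimulated DCs to 121 to 197 and 71.0 to 107 CPM. *Tnfrsf10b*, its receptor, fell by 1.04 and 1.01 on the log2 scale.

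Among the RHIM partners and upstream sensors, 4 of 5 rose and 1 fell with LPS, and all 5 rose with IFN-β. *Zbp1*, the nucleic acid sensor that binds RIPK3, was at 88.6, 77.0 and 44.6 CPM in unstimulated DCs, at 493, 473 and 506 CPM with LPS and at 341, 317 and 397 CPM with IFN-β. Its log2 fold change was 2.81 (SE 0.21, adjusted p = 6.93e-07) and 2.33 (SE 0.21, adjusted p = 1.2e-05). *Ticam1*, which encodes the adaptor TRIF, was at 31.8, 28.8 and 26.7 CPM in unstimulated DCs, at 49.1, 52.0 and 43.4 CPM with LPS and at 38.3, 37.1 and 34.9 CPM with IFN-β, with log2 fold changes of 0.73 (adjusted p = 2.56e-05) and 0.34 (adjusted p = 0.00895). Both genes had no overlap between unstimulated and stimulated libraries. *Tlr3*, the receptor for double-stranded RNA, rose by 3.94 and 3.41 on the log2 scale, while *Tlr4*, the LPS receptor, fell by 0.63 with LPS and rose by 0.40 with IFN-β.

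Of the 8 ubiquitin ligases of the TNF receptor complex, 7 rose with LPS and all 8 with IFN-β. The largest rise was that of *Rnf31*, the catalytic subunit of the linear ubiquitin ligase, which was 4.01-fold with LPS and 2.68-fold with IFN-β. The deubiquitinases and their adaptors had 4 of 5 members higher with LPS and 3 with IFN-β, led by *Tnfaip3*, which encodes A20, at 3.13 and 0.99. Of the 12 kinases that restrain RIPK1 and their adaptors, 10 rose and 2 fell with LPS and 8 rose with IFN-β. *Tank*, a TBK1 adaptor, had the largest rise with LPS at 2.30, *Azi2*, another TBK1 adaptor, with IFN-β at 1.31, and *Tab1*, the partner of TAK1, had the largest fall with LPS at -0.58.

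In the list of MLKL chaperones, cofactors and membrane repair genes 4 of 10 rose and 3 fell with LPS, and 2 rose and 2 fell with IFN-β. These shares, 70% and 40%, lie near the 68.2% and 46.9% of all tested genes. *Chmp4b*, a subunit of the ESCRT-III complex, rose by 1.52 and 1.20, and *Ippk*, an inositol phosphate kinase, fell by 0.67 (adjusted p = 0.00189) and 0.39 (adjusted p = 0.0449).

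**Figure D5:**
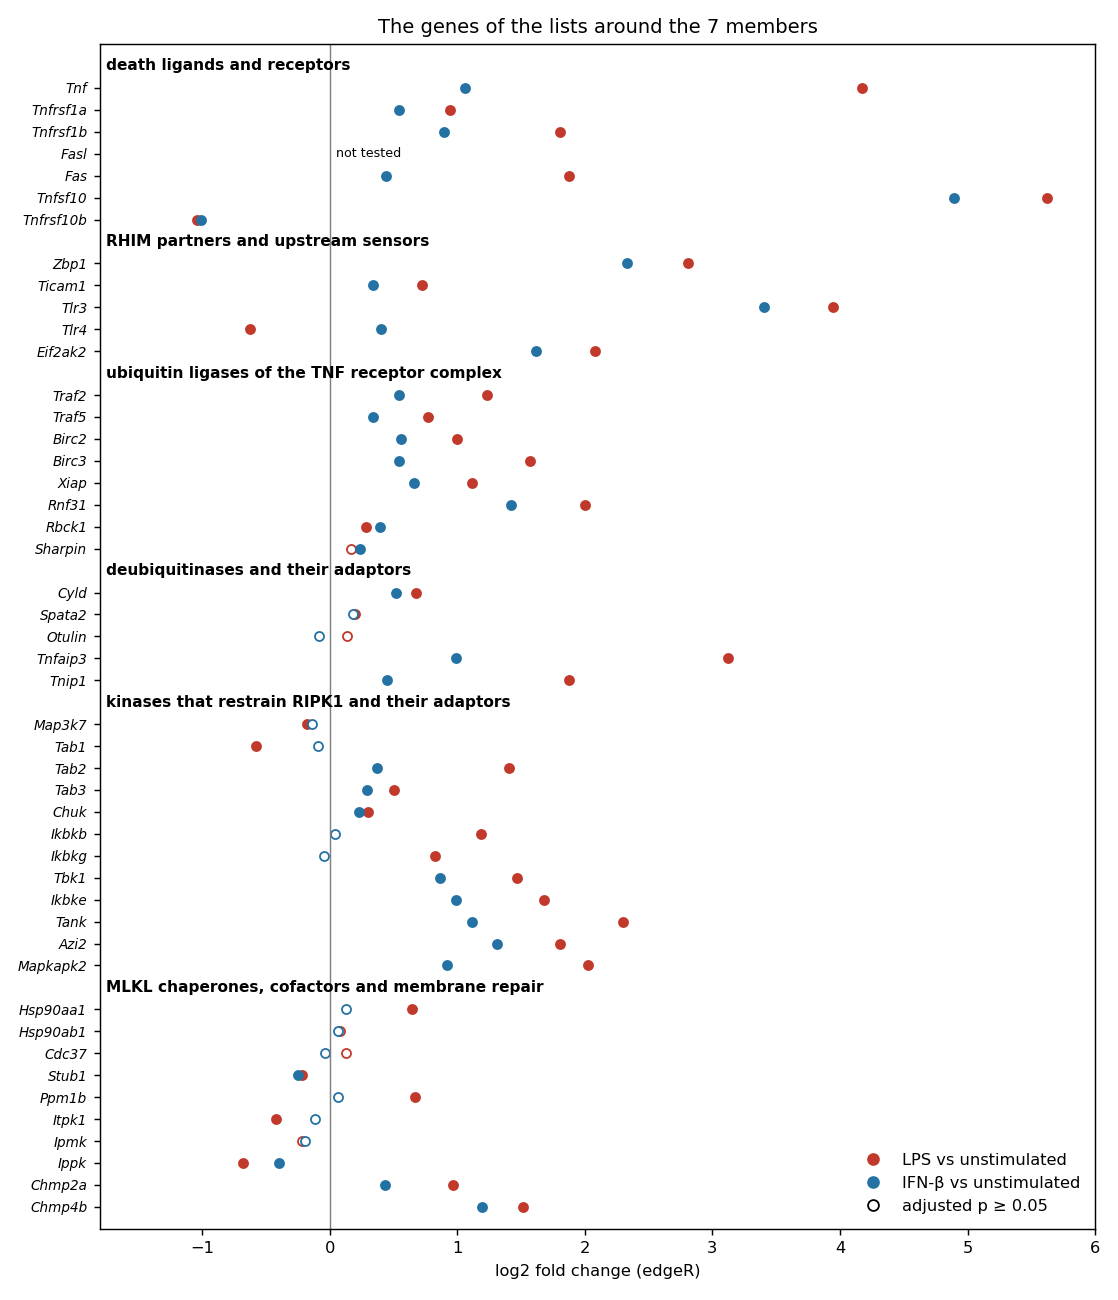
Log2 fold change (horizontal axis) with LPS and with IFN-β of the genes in 6 of the lists around the 7 members, grouped by list, with open points for an adjusted p of 0.05 or more. Most points lie to the right of 0, with *Tnfsf10* the farthest at 5.62 and 4.89 and *Tnfrsf10b* the lowest at -1.04 and -1.01.

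The patterns of the members over the 9 libraries were set beside those of all tested genes by Pearson's r of log2(CPM + 0.5), as a description, since the libraries share depth and condition. The 3 genes nearest to *Mlkl* were *Ifi205*, *Mx2* and *Usp18*, with r of 0.9996, 0.9989 and 0.9989. Nearest to *Cflar* were *Car13*, *Msn* and *Plod2*, each with r of 0.999, and nearest to *Casp8* were *Il10ra*, *Aftph* and *Mocs2*, with 0.999, 0.999 and 0.998. *Ripk3*, low with LPS, was nearest to *Erp29* (0.997), *Tgfbr2* (0.996) and *Olfm1* (0.994). The members with small changes had weaker matches, *Tradd* with *Inppl1* (0.986), *Rnf10* (0.983) and *Tsc22d4* (0.978), *Ripk1* with *Zc3h12d* (0.980), *Wdfy1* (0.962) and *Tgoln1* (0.956), and *Fadd* with *Mrpl4* (0.932), *Tubb3* (0.898) and *Cd63* (0.898).

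The neighbouring genes did not all move as the members did. Apart from the pair *Cflar* and *Casp8*, *Mlkl* lies 11574 bp from *Rfwd3*, which had log2 fold changes of -0.01 with LPS (adjusted p = 0.877) and 0.00 with IFN-β (adjusted p = 0.966). On the far side of *Casp8*, *Trak2* had -0.14 and -0.18. *Ripk1* lies between *Nqo2*, which fell by 1.34 with LPS, and *Bphl*, which fell by 0.99, while *Ripk1* itself did not pass the test. *Ppfia1*, next to *Fadd*, rose by 1.30 with LPS (adjusted p = 2.01e-07), and *Fbxl8*, 38 bp from *Tradd*, rose by 0.32 (adjusted p = 0.0392).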

How the data were processed

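RNA sequencing of 9 libraries was used, 3 unstimulated, 3 with LPS and 3 with IFN-β, grouped by the treatment in the labels. The authors trimmed adapters with Trim Galore (0.6.0 in the processing notes), mapped reads to mm10 (GRCm38) with STAR, counted them on GENCODE genes and deposited raw counts per gene and library, with no normalization or filter. STAR is given as 2.7.8a in the processing notes and as another release in the methods.

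Tests followed the methods: TMM factors and quasi-likelihood F-tests in edgeR 4.0.16 (R 4.3.3), with 1 term per condition over all 9 libraries, genes kept by filterByExpr, and Benjamini-Hochberg adjustment over all 16260 tested genes at 0.05. The SE of a log2 fold change is its size divided by the square root of F. The 95% interval uses the residual degrees of freedom of the fit plus the prior ones that edgeR estimates over all genes. A simulation drew independent libraries and changed 200 genes, as many up as down, before the filter. Its test of LPS against unstimulated, on 15901 genes, recovered 69 of 94 genes changed by 1 on the log2 scale. It recovered 94 of 98 changed by 2, with 4.12% of calls false. In the data 68.2% of tested genes changed with LPS, so that these rates need not hold there.

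Gene positions and lengths came from GENCODE M21, which holds 55144 of the 55471 identifiers. The members and lists were chosen with earlier results of these data known. The genes named are the members, *Zbp1* and *Ticam1*, the largest rise and fall past the threshold in each list with each stimulus, the 3 genes most like each member, genes whose exons overlap a member, and the stimulation markers. The single genes of 1 of the 7 lists, the caspase-8 substrates, are not reported here. Nearest neighbours, *Fasl* and the markers that define the cells were named after their values were seen.

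Libraries of a group differed by more than counting noise (chi-square per gene 12.9 to 35.9), so that none was taken for a repeat deposit. Same-letter libraries deviated together from their group means (r 0.134 to 0.546 in 9 pairs, against -0.480 to 0.062 in 18 pairs of different letters). This pairing rests on the data and not on the labels, and the main fit has no term for the letter. Its p-values, SEs and intervals therefore leave the pairing out, and the fit with the letter as a block is given as an alternative. The alternatives were the letter as a replicate block, DESeq2 1.42.0, upper-quartile factors, scaling by library size only, the 2 compared groups alone, testing without the low-count filter, a minimum of 10 counts per library, the longest transcript as length, and leaving out each library. Intervals cover counting error only where they are given for counts, since PCR copies cannot be told from molecules.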

Additional observations from a re-analysis of the deposited data

How the results depend on the processing

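Among the refits of a member's log2 fold change, 325 stayed on their side of the threshold, of which 11, none of them past it, had the other sign. Of the rest, 3 changed sign and passed it, 7 came past the threshold and 1 fell short of it. With scaling by library size only, *Ripk1* with LPS was -0.45 (adjusted p = 4.18e-05), *Tradd* with LPS -0.22 (0.0434), *Ripk3* with IFN-β -0.26 (0.00773) and *Fadd* with LPS -0.60 (0.000153). Between IFN-β and LPS it gave *Ripk1* 0.30 (0.00188), *Fadd* 0.45 (0.00222) and *Casp8* -0.14 (0.092). These values hold the shift of the median gene that this scaling makes.

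With the letter as a replicate block, *Ripk1* was 0.13 (adjusted p = 0.0317) with LPS and 0.15 (0.0213) with IFN-β, *Tradd* was 0.22 (0.026) with IFN-β, and 5 members in place of 3 were called with IFN-β. Over all tested genes the block called 11950 in place of 11084 with LPS, and 9151 in place of 7631 with IFN-β. The block changed no other call of a member. Leaving out 1 library at a time gave *Tradd* with IFN-β 0.17 to 0.29, past the threshold only without unstimulated library A, where 4 members were called. No other call of a member changed when a library was left out. With LPS, library size only called 4 members lower in place of 1, and between the stimuli 3 higher in place of 1. Over all 16260 tested genes it called 9906 lower with LPS in place of 5750. Between the stimuli it called 7024 of them higher in place of 4194.

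Of the recomputed length-scaled levels, 74 stayed within 1 SD and 31 moved by more. All 31 moves came with the longest transcript as length or with library size only. The 74 hold every level recomputed without 1 library, which in groups of this size cannot shift a mean by 1 SD. They also hold the *Fadd* levels with the longest transcript, since its length is 3903 bp either way. The 74 therefore do not measure how stable the levels are. The lowest member count, 402, carries a counting error of 4.99%.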

Other observations

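Unstimulated library C was the lowest of the 9 in each of the interferon-response genes followed. *Irf7* was at 228, 161 and 33.3 CPM in libraries A, B and C, *Ifit1* at 40.7, 25.9 and 11.2 CPM, *Isg15* at 35.8, 22.1 and 8.80 CPM and *Oasl1* at 35.8, 28.6 and 6.14 CPM. *Zbp1* (44.6 CPM) and *Mlkl* (24.6 CPM) were likewise lowest in library C, and so were *Ripk1* (83.3 CPM) and *Tradd* (11.9 CPM). *Casp8* (80.1 CPM) and *Cflar* (155 CPM) in library C were close to their values in library B (78.6 and 155 CPM).

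In the plasmacytoid DC list, *Siglech* was at 0.025 CPM or less in every library. *Bst2* was at 66.5 to 136 CPM in unstimulated DCs, 384 to 473 CPM with LPS and 355 to 378 CPM with IFN-β. In the same order, *Tcf4* was at 35.6 to 43.9, 207 to 253 and 72.2 to 94.7 CPM. *Ccr9* was at 0.279 to 0.722, 1.95 to 2.42 and 1.03 to 1.52 CPM.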
